A study of Mus musculus with 22 samples.

Results

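The regions described here carried H3K4me3 in all 5 cell types of the series, lacked an H3K27me3 peak in neuroepithelial cells, and had one in at least 1 of the 4 later cell types. They were chosen by peak overlap, with no use of peak height. Joining the peaks of the 5 H3K4me3 lists that shared at least 1 bp gave 17229 regions, 16571 of them on the autosomes. Of the autosomal regions, 11345 met a peak in every H3K4me3 list and are called constitutive. Of these, 374 (3.3%) overlapped no NEC H3K27me3 peak and at least 1 H3K27me3 peak of a later list. They are called members below, and their presence calls are a description, since they chose the regions.

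The cells were purified from the developing neocortex of C57BL/6JOlaHsd mice. From E14.5 embryos (E gives the embryonic day) came neurons (N) and 3 kinds of radial glia. The apical radial glia were separated into proliferative (aRG-P) and neurogenic (aRG-N) cells, and the remaining kind was basal radial glia, or bRG. From E9.5 embryos came neuroepithelial cells (NEC), the founder progenitors from which radial glia descend. Each type had 2 samples per mark, and the 2 aRG-N H3K27me3 samples are technical replicates per the labels. For each mark the samples of a cell type were combined into 1 peak list, so replicate error cannot be given for any value, and every difference below is untested. The 4 later groups differ from NEC in both age and cell type, which cannot be told apart.

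H3K4me3 is laid down at promoters by the COMPASS family of methyltransferases and marks genes that are active or poised. H3K27me3 is laid down by Polycomb repressive complex 2, through EZH2 or EZH1, and accompanies stable silencing of developmental genes. Promoters with both marks are called bivalent, and in the cortex loss of Ezh2 in progenitors is known to alter the timing of neurogenesis. Overlapping peaks of separate lists do not show both marks in the same cell. Positions are 1-based in mouse build mm9, and no gene names are given because the gene annotation at hand was of another build.

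Neurons accounted for most of the members, and the combination of all 4 later cell types was the second most frequent pattern. An H3K27me3 peak in N was present in 303 members (81.0%, exact binomial 95% interval 76.7 to 84.9%). In aRG-N it was present in 171 (45.7%, 40.6 to 50.9%), in bRG in 137 (36.6%, 31.7 to 41.7%) and in aRG-P in 104 (27.8%, 23.3 to 32.6%). Such intervals cover counting error only. Over all constitutive regions, the share with H3K27me3 in the list and not in NEC was 2.67% for N, 1.51% for aRG-N, 1.21% for bRG and 0.917% for aRG-P. The lists differ in length, and on the autosomes the aRG-N list held 6165 H3K27me3 peaks, N 5448, aRG-P 4634 and bRG 3387. Of the constitutive regions that each list marked with H3K27me3, members made up 19.7% for N, 13.2% for bRG, 11.7% for aRG-N and 9.74% for aRG-P. With all H3K27me3 lists shortened to 3387 peaks, the rule gave 446 regions, of which N marked 324, bRG 262, aRG-N 218 and aRG-P 165. N was first in both counts, while bRG and aRG-N changed places.

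H3K27me3 was present in all 4 later lists at 64 members (17.1%, interval 13.4 to 21.3%), which is 0.564% of constitutive regions. A single later list marked 202 members (54.0%, 48.8 to 59.1%). Of these, N alone marked 141, aRG-N alone 36, bRG alone 24 and aRG-P alone 1. Another 67 members were marked in 2 lists and 41 in 3. The most frequent pairs were aRG-N with N (29 members) and bRG with N (24), and no member was marked in aRG-P and bRG alone. Of the 104 aRG-P members, 103 were also marked in another later list, 95 of them in N (91.3% of the aRG-P members, 31.4% of the N members). The apical pair shared 90 members, 86.5% of those of aRG-P and 52.6% of those of aRG-N. Sharing between lists was also frequent beyond the members. Of the 1068 constitutive regions that aRG-P marked with H3K27me3, 719 were marked in all 5 lists, and so in N and aRG-N too. The shares of each pair over all constitutive regions are not given, so these overlaps are not a trait of members. Without the N list the rule kept 233 regions, and requiring at least 2 later lists kept 172.

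**Figure D1:**
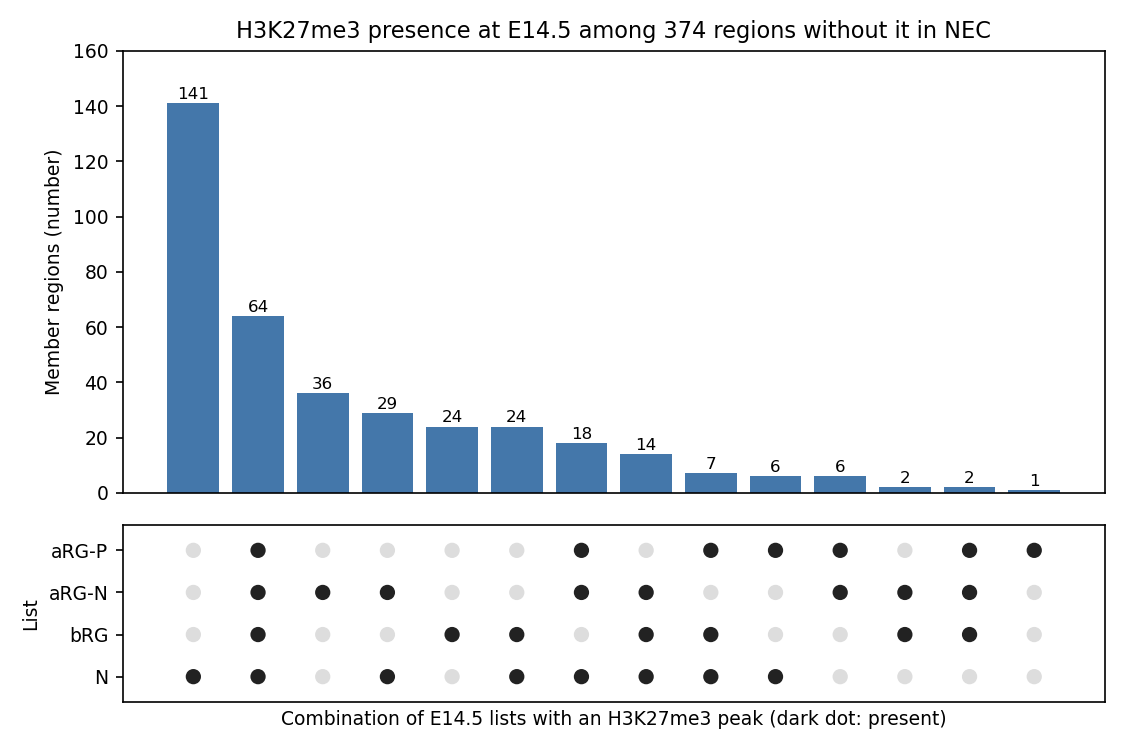
Bars give the number of member regions for each combination of E14.5 lists with an H3K27me3 peak, and dark dots under a bar name the lists. The bar for N only reaches 141 and that for all 4 lists 64, while aRG-P only holds 1 region.

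The 8 members marked in all 4 later lists with the most bases covered had longer H3K4me3 in NEC than in any later list. Bases were counted in the list that covered the region least. This choice favours wide regions, whose width came mostly from NEC H3K4me3. The region chr8:35038749-35041207 (2459 bp) was covered by H3K27me3 over its whole length in the 4 later lists, by a peak of 4294 bp for aRG-P, 5721 bp for aRG-N, 4961 bp for bRG and 5762 bp for N. H3K4me3 covered 348 bp of it for aRG-P, 1021 bp for aRG-N, 624 bp for bRG and 973 bp for N, against all 2459 bp in NEC. Its fold enrichment of H3K4me3 over background, a value of the authors' peak caller, was 5.57 for aRG-P, 9.83 for aRG-N, 6.99 for bRG and 7.99 for N, against 36.5 in NEC. Fold enrichments of different lists are not on a common scale, so each was ranked among the 11345 constitutive regions of its own list. On that scale this region lay at percentile 5.57 for aRG-P, 23.1 for aRG-N, 20.4 for bRG and 31.1 for N, against 84.4 in NEC. All 4 later cell types were low and NEC was high. The nearest NEC H3K27me3 peak lay 410 kb away.

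The region chr2:69422169-69424599 (2431 bp) was likewise covered whole in all 4 later lists. Its H3K4me3 percentile was 14.2 for aRG-P, 12.3 for aRG-N, 5.26 for bRG and 27.8 for N, against 79.1 in NEC. At chr4:131629858-131631476 (1619 bp), also covered whole in all 4, the percentiles were 46.5, 29.1, 35.8 and 21.3 in the same order of later cell types, against 80.5 in NEC. In each of these regions NEC stood above every later list.

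The region chr14:29317413-29320834 (3422 bp) lay close to H3K27me3 that NEC already had. It was covered over 2844 bp in bRG and over 3422 bp in the other later lists, by peaks of 8006 to 12182 bp. An NEC H3K27me3 peak began 461 bp from its edge, inside the span of the later peaks. Its H3K4me3 percentile was 8.04 for aRG-P, 10.7 for aRG-N, 20.4 for bRG and 21.3 for N, against 45.1 in NEC. H3K4me3, unbroken over the region in NEC, was split into several peaks in each later list, as the maps of single regions show.

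Further regions named for the most bases covered in all 4 lists were chr19:53602923-53606309, chr10:45204616-45206851, chr8:111237980-111239853 and chr2:34225567-34228356. Coverage of the last of them was 57.8% in aRG-P and 59.8% in aRG-N, and whole in bRG and N. Coverage of the first ran from 67.3% in bRG to 81.9% in aRG-P. At the first of them the strongest H3K4me3 summit lay under H3K27me3 in aRG-P and not in aRG-N, bRG or N, where the bases with both marks numbered 244, 202 and 369. The region on chromosome 10 lay in an aRG-N H3K27me3 peak of 25921 bp, the longest aRG-N peak to meet a member. In all 4 regions the H3K4me3 percentile was lower in each later list than in NEC. The difference between the median of the later percentiles and the NEC percentile ran from -17.6 points (chromosome 10) to -39.8 points (chromosome 2).

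**Figure D2:**
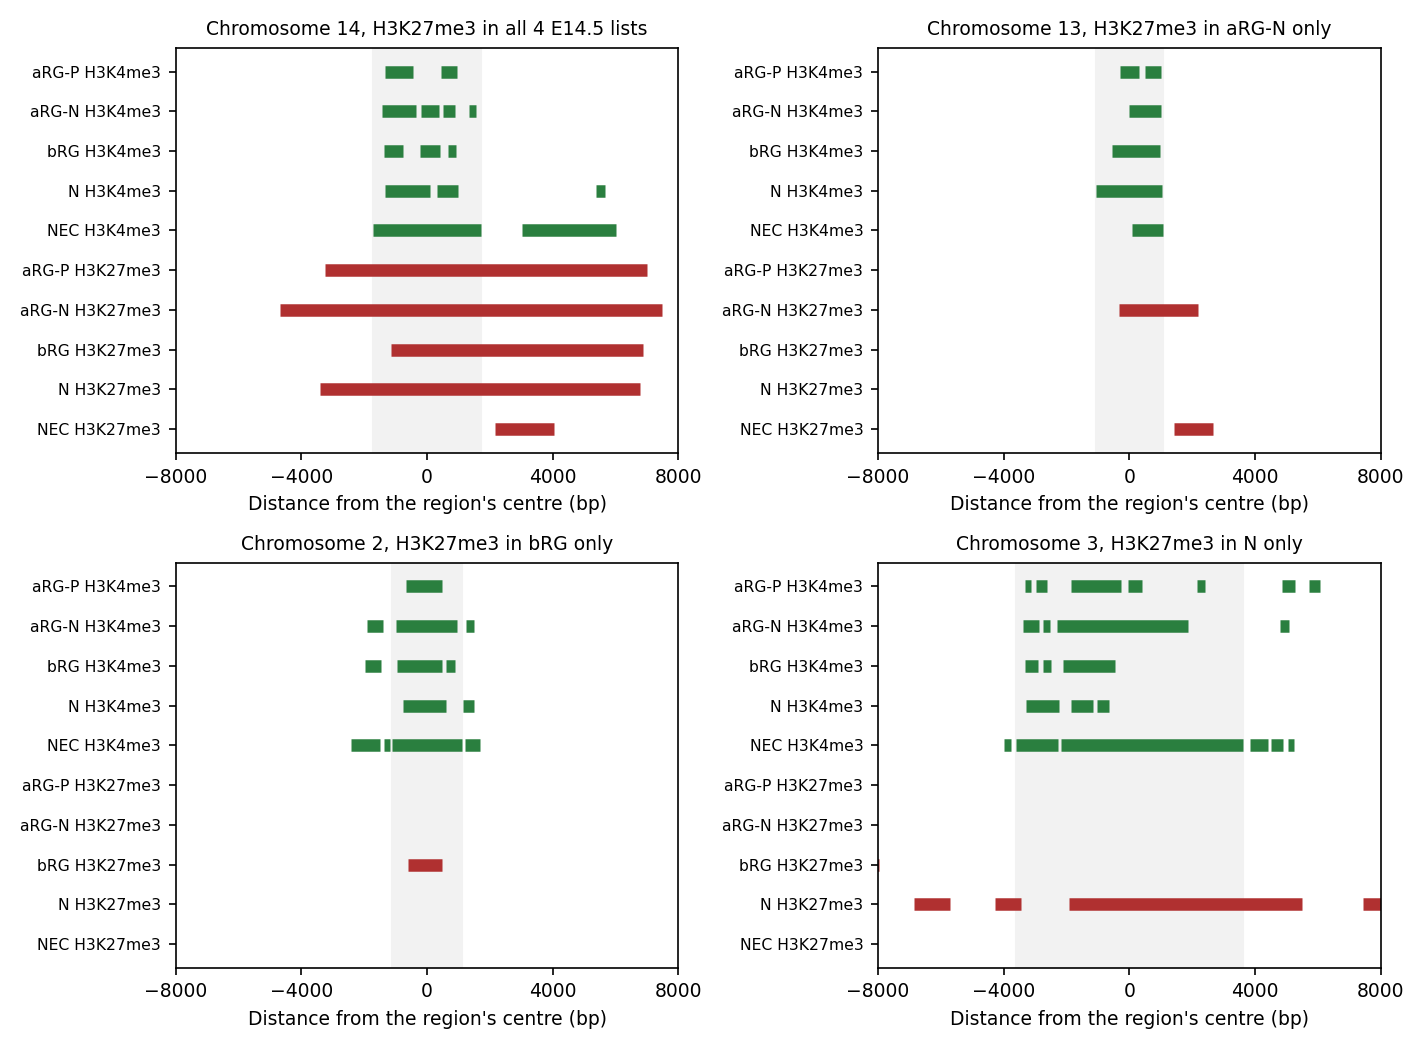
Peaks of H3K4me3 (green) and H3K27me3 (red) in each cell type around 4 member regions, by distance in bp from the centre of the region (grey). H3K27me3 lies on the chromosome 14 region in all 4 E14.5 lists and the chromosome 13, 2 and 3 regions in aRG-N, bRG and N only, and the NEC H3K27me3 peaks on chromosomes 14 and 13 end outside the grey region.

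At the member regions H3K4me3 ranked lower within each later list than within NEC. The fold enrichment was not used by the rule, which asked only for a peak. Its median percentile over the 374 members was 29.1 for aRG-P, 27.1 for aRG-N, 28.0 for bRG and 24.8 for N, against 43.4 in NEC. Constitutive regions with no H3K27me3 in any list (8631) had medians of 55.8, 59.0, 59.0 and 55.5 in the later lists, against 59.2 in NEC. Regions with H3K27me3 in all 5 lists (719) had 17.6, 13.9, 13.6 and 18.5, against 18.8 in NEC. The 802 regions with H3K27me3 in NEC only, 7.07% of constitutive regions, ran the other way, with 46.5, 41.8, 44.3 and 51.4 in the later lists, against 29.8 in NEC. These 3 classes thus had lower medians than the regions with no H3K27me3 in each of the 5 lists, also where their own list lacked the mark. Among the later lists, aRG-P marked the fewest members and had the median of members least far below that of those regions. N marked the most members, and the median lay farthest below in aRG-N.

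**Figure D3:**
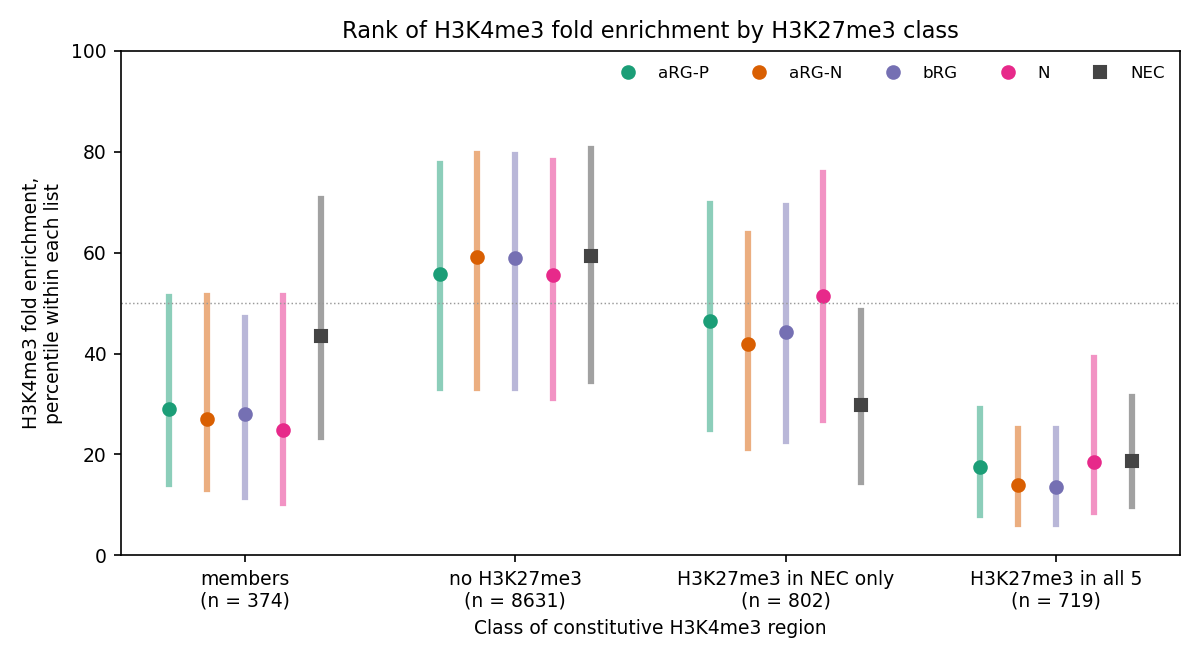
Percentile of H3K4me3 fold enrichment within each list for members and 3 other classes of constitutive region. Points are medians and bars run between the quartiles over regions. Members have medians of 24.8 to 29.1 in the E14.5 lists and 43.4 in NEC, and regions with H3K27me3 in NEC only show the opposite order.

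Region by region, the median of the later percentiles was 10.8 points below the NEC percentile for members (median difference -10.8, quartiles -26.9 and 2.00). It was -0.91 for regions with no H3K27me3, -1.92 for regions with H3K27me3 in all 5 lists and 11.7 for regions with it in NEC only. The NEC percentile exceeded all 4 later ones at 179 members (47.9%), against a background of 22.8% over all constitutive regions. At 128 members (34.2%) the later median lay at least 20 points below NEC, against 12.4% of all constitutive regions. At 19 members (5.08%) it lay at least 20 points above, against 12.7%.

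The difference was widest where all 4 later lists carried H3K27me3. Among those 64 members the median difference was -27.3 points, and NEC ranked highest at 48 (75%). Their median percentile was 21.4 for aRG-P, 14.3 for aRG-N, 15.8 for bRG and 18.5 for N, against 48.9 in NEC. With H3K27me3 in 1 later list NEC ranked highest at 40.1% of members, with 2 lists at 46.3% and with 3 lists at 46.3%. The median difference was -7.60 points with 1 list, -10.2 with 2 and -4.40 with 3, so it did not widen with each further list. The most negative difference belonged to chr10:98725886-98729389, at -85.3 points, a region chosen after its value was seen.

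**Figure D4:**
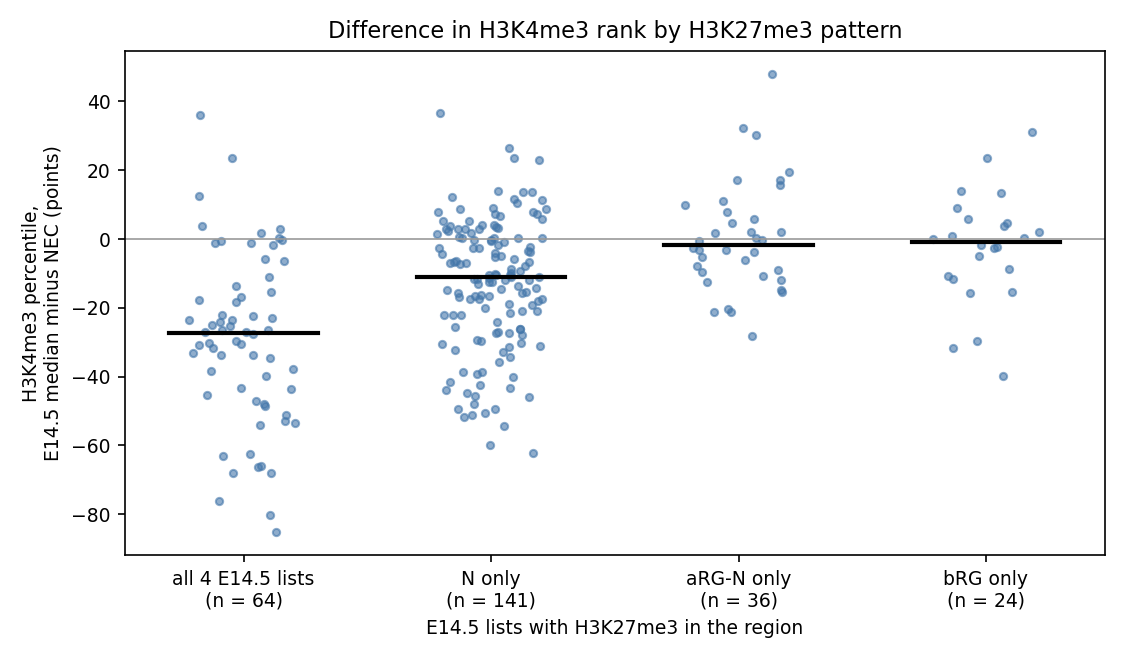
Each point is a member region, plotted as the median E14.5 percentile of H3K4me3 fold enrichment minus the NEC percentile, by the lists that carry H3K27me3. Black lines are medians, at -27.3 for all 4 lists, -11.1 for N only, -1.69 for aRG-N only and -0.80 for bRG only.

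Members had wide H3K4me3 in NEC. The median width of a member region was 1781 bp, against 1449 bp for regions with no H3K27me3, 1551 bp for those with it in NEC only and 1398 bp for those with it in all 5 lists. A wider region has more bases on which a peak of the other mark can fall. H3K4me3 covered a median of 849 bp of a member for aRG-P, 1087 bp for aRG-N, 950 bp for bRG and 872 bp for N, against 1706 bp in NEC. In regions with no H3K27me3 these medians were 871, 1126, 981 and 967 bp in the later lists, against 1367 bp in NEC. In length, members thus stood apart mainly in NEC. That NEC H3K4me3 filled most of the region was general, since the median share was 100% in members, against 98.4% in regions with no H3K27me3 and 100% in those with it in all 5 lists.

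The H3K27me3 peaks overlapped the members in part. The median length of member region under H3K27me3 was 741 bp for aRG-P, 769 bp for aRG-N, 843 bp for bRG and 883 bp for N. The mark entered the region from a single end at 59.6% of marked members for aRG-P, 61.4% for aRG-N, 44.5% for bRG and 50.5% for N. It covered the whole region at 18.3% for aRG-P, 22.2% for aRG-N, 8.76% for bRG and 24.1% for N. In bRG the most frequent placement was a peak wholly inside the region, at 46.0%, against 22.1% for aRG-P, 15.2% for aRG-N and 23.4% for N.

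At 333 members (89.0%) some later H3K27me3 peak met the H3K4me3 peak of its own cell type, and at 41 it met only a part of the region where another cell type had H3K4me3. By list, H3K27me3 met H3K4me3 of the same cell type at 75 of 104 members for aRG-P, 144 of 171 for aRG-N, 122 of 137 for bRG and 265 of 303 for N. The strongest H3K4me3 summit lay under H3K27me3 at 42 members for aRG-P (40.4%), 77 for aRG-N (45.0%), 70 for bRG (51.1%) and 163 for N (53.8%). In regions with H3K27me3 in all 5 lists those shares were 69.1%, 84.8%, 68.6% and 85.0%. Of the 64 members marked in all 4 later lists, the summit lay under H3K27me3 at 31, 38, 39 and 49 in the same order. Of all bases under H3K27me3 in marked members, 68.5% lay outside the same cell's H3K4me3 for aRG-P, 52.5% for aRG-N, 51.9% for bRG and 59.0% for N. Of all bases of those members, 57.7%, 41.7%, 48.4% and 52.6% lay outside it.

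**Figure D5:**
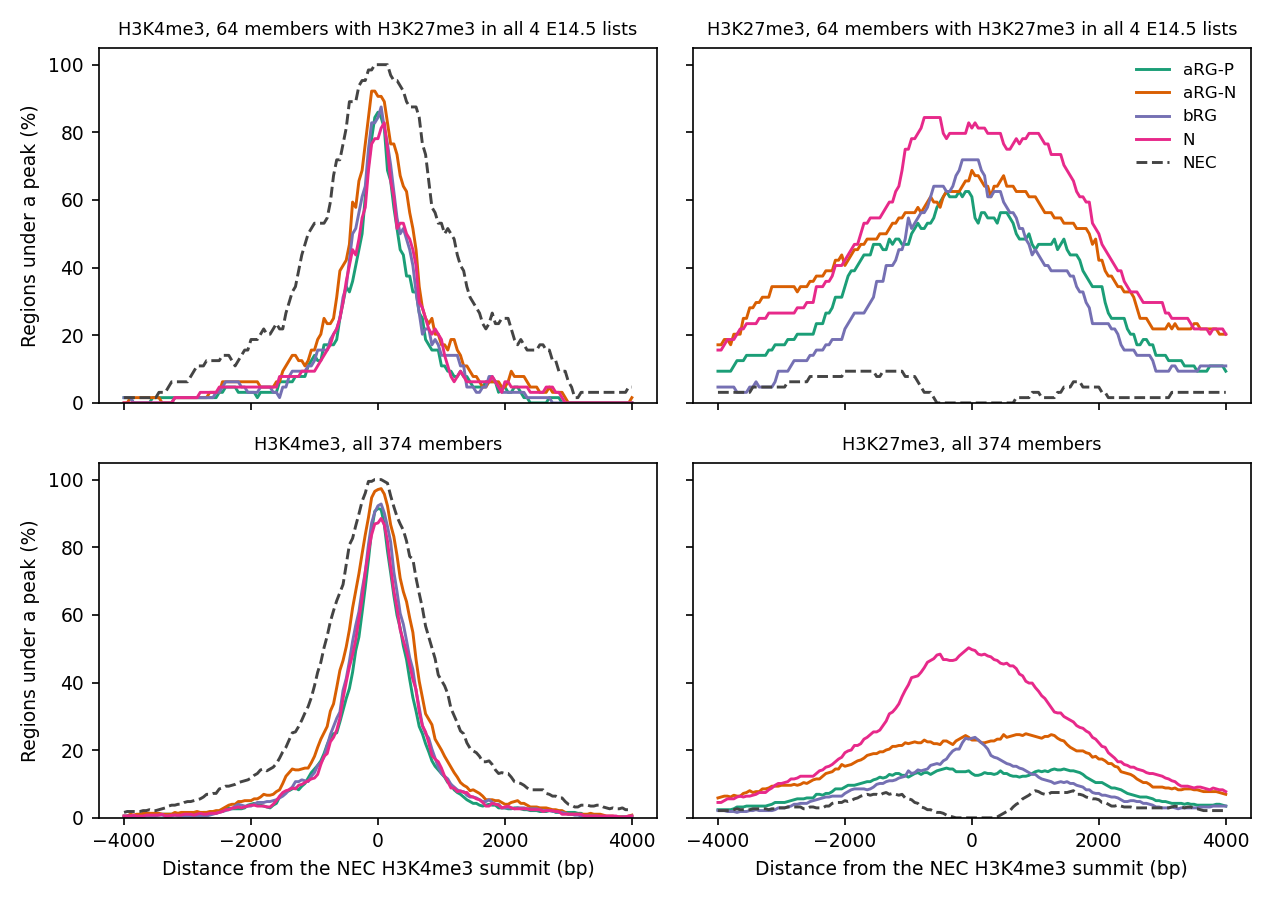
Share of regions lying under a peak at each distance in bp from the strongest NEC H3K4me3 summit, for the 64 members with H3K27me3 in all 4 E14.5 lists and for all 374 members. At 1000 bp to the right of the summit 10.9 to 18.8% of the 64 regions had H3K4me3 in the E14.5 lists and 53.1% in NEC, while H3K27me3 was present at 45.3 to 79.7% in the E14.5 lists and 3.13% in NEC.

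In the 64 members marked in all 4 later lists H3K27me3 lay over the NEC summit more often than not. At the summit itself H3K27me3 was present at 60.9% of them for aRG-P, 68.8% for aRG-N, 71.9% for bRG and 81.3% for N. H3K4me3 was present there at 85.9% for aRG-P, 90.6% for aRG-N, 84.4% for bRG and 78.1% for N. The NEC values at the summit, 0 for H3K27me3 and 100% for H3K4me3, follow from the rule and the choice of centre.

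H3K27me3 peaks at members were shorter and ranked lower in score than at regions marked in all 5 lists. The score is a value of the deposited H3K27me3 lists, ranked here within each list. The median peak at a member measured 1664 bp for aRG-P, 1943 bp for aRG-N, 1115 bp for bRG and 1523 bp for N, against 3060, 4471, 2488 and 4062 bp at regions marked in all 5. The median score percentile was 53.9 for aRG-P, 56.8 for aRG-N, 34.7 for bRG and 49.5 for N, against 69.6, 80.5, 59.8 and 76.8. Most members were marked in fewer later lists than those regions. The 64 members marked in all 4 later lists lay in between. Their median peaks measured 2210, 2938, 1990 and 3704 bp in the same order, and their median score percentiles were 61.7, 72.0, 51.6 and 70.6.

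The 141 regions with H3K27me3 in neurons and in no progenitor list had their lowest median rank of H3K4me3 in neurons. Their median percentile was 33.2 for aRG-P, 37.4 for aRG-N, 30.4 for bRG and 21.3 for N, against 45.1 in NEC. N had the lowest percentile of the 4 later lists at 64 of them (45.4%), against 30.7% of all constitutive regions. The mark covered a median of 43.2% of the region, and it lay on the strongest N H3K4me3 summit at 60.

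The N-only member with the most H3K27me3 was chr3:34547446-34554654 (7209 bp), which was also the second widest of all members. N H3K27me3 covered 5671 bp of it. H3K4me3 covered 2912 bp for aRG-P, 4889 bp for aRG-N, 2327 bp for bRG and 2174 bp for N, against 7108 bp in NEC. The H3K4me3 percentile was 55.8 for aRG-P, 43.0 for aRG-N, 32.0 for bRG and 12.1 for N, against 82.4 in NEC. N was lowest and NEC highest. The nearest NEC H3K27me3 peak lay 4783 bp from the region, so this member is not kept when such peaks within 5000 bp are disallowed.

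At chr3:5218160-5222560 (4401 bp) an N H3K27me3 peak of 16912 bp covered the whole region. H3K4me3 stood at percentile 21.4 for aRG-P, 79.5 for aRG-N, 56.1 for bRG and 27.8 for N, against 80.5 in NEC, so aRG-P was lower than N although it had no H3K27me3 peak there. At chr5:3340602-3344910 (4309 bp) N H3K27me3 covered 3369 bp, and H3K4me3 lay at 33.2 (aRG-P), 41.8 (aRG-N), 30.4 (bRG) and 27.8 (N), against 38.1 in NEC. A wide member on chromosome 13, chr13:15553703-15560157 (6455 bp), had only 716 bp of N H3K27me3. There the H3K4me3 percentile was 55.5 to 70.8 in the later lists, against 93.7 in NEC. The region chr17:71197178-71203620 (6443 bp) carried 3820 bp of H3K27me3 for N and 778 bp for bRG, and its H3K4me3 covered 1238 bp for N and 3926 bp for bRG, against 6443 bp in NEC.

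The 36 regions with H3K27me3 in aRG-N only had their lowest median rank of H3K4me3 in aRG-N. Their median percentile was 35.5 for aRG-P, 22.2 for aRG-N, 28.0 for bRG and 49.3 for N, against 24.97 in NEC. The aRG-N percentile was the lowest of the later lists at 17 of them (47.2%), against 21.7% of all constitutive regions. NEC was nearly as low as aRG-N, and the difference between the later median and NEC had a median of -1.69.

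The aRG-N-only member with the most H3K27me3, chr13:14613250-14615402 (2153 bp), had 1416 bp of it and lay 329 bp from an NEC H3K27me3 peak. H3K4me3 covered 1136 bp for aRG-P, 1011 bp for aRG-N, 1547 bp for bRG and 2124 bp for N, against 995 bp in NEC. The mark was thus longest in N, where there was no H3K27me3 peak, and shortest in NEC and aRG-N. Its H3K4me3 percentile was 37.4 in aRG-N, above the 28.0 of bRG, against 20.3 in NEC. At chr8:35868841-35873856 (5016 bp) aRG-N H3K27me3 covered 1354 bp, and the percentile was 43.0 in aRG-N, above the 19.4 of aRG-P, against 59.2 in NEC. At chr1:11403785-11404973 H3K27me3 covered all 1189 bp and H3K4me3 was weak throughout, at percentile 14.2 for aRG-P, 6.77 for aRG-N, 9.90 for bRG and 18.5 for N, against 15.9 in NEC. None of these named aRG-N-only regions was still a member when the H3K27me3 lists were cut to equal length.

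The 24 regions with H3K27me3 in bRG only had high median ranks of H3K4me3 in every list, with a wide range. Their median percentile was 73.7 for aRG-P, 79.5 for aRG-N, 85.4 for bRG and 74.2 for N, against 81.7 in NEC. Single regions lay as low as 1.49 in bRG and 26.5 in NEC. The bRG percentile was the lowest of the later lists at 5 (20.8%), against 21.1% of all constitutive regions. Their bRG H3K27me3 peaks were short, with a median of 497 bp, against 1313 bp for bRG peaks at members also marked in another later list. They lay wholly inside the H3K4me3 region at 19 of 24. Their median score percentile in the bRG list was 25, against 41.1.

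The strongest of these by H3K4me3 was chr7:133645019-133647122 (2104 bp), which had the highest NEC fold enrichment of any member. Its fold enrichment was 20.6 for aRG-P, 33.3 for aRG-N, 20.6 for bRG and 14.02 for N, against 54.7 in NEC, and its percentile was at least 97.9 in each list. A bRG H3K27me3 peak of 500 bp lay on it. The widest member of all, chr2:17963232-17971749 (8518 bp), had a bRG H3K27me3 peak of 312 bp and H3K4me3 percentiles from 72.2 in N to 94.9 in bRG, against 93.1 in NEC. The bRG-only members with the longest H3K27me3 were chr2:173901285-173903508 with 1101 bp, chr13:118008766-118011574 with 1053 bp and chr11:110926261-110927441 with 997 bp. These ranked lower than the median of the 24 in NEC. The region on chromosome 2 had H3K4me3 percentiles of 35.0 to 77.4 in the later lists, against 38.1 in NEC. The region on chromosome 13 had 33.2 to 64.2, against 62.5 in NEC, and that on chromosome 11 had 13.6 to 21.4, against 26.5 in NEC. The bRG scores on chromosomes 2 and 13, 15.78 and 15.6, lay near the lowest of the 24 (15.59). With all H3K27me3 lists held to a common lowest score of 15.81, neither was still a member. The region on chromosome 11 lay 341 bp from an NEC H3K27me3 peak and is not kept when such peaks within 5000 bp are disallowed. The single member marked in aRG-P only, chr11:105926960-105928337, had 296 bp of H3K27me3 and an H3K4me3 percentile of 97.1 in aRG-P, against 92.2 in NEC. There aRG-P was the highest of the later lists, while over all constitutive regions it was the lowest at 26.5%.

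Other members with high H3K4me3 in NEC differed in what the later cells had. They were chosen for the highest NEC fold enrichment, so their high NEC rank follows from the choice. At chr2:168589050-168592717 (3668 bp) the fold enrichment was 9.42 for aRG-P, 8.05 for aRG-N, 7.502 for bRG and 6.07 for N, against 48.3 in NEC. H3K27me3 covered the whole region for aRG-P and N, 1870 bp for aRG-N and 1074 bp for bRG. Its H3K4me3 percentile was 10.4 to 36.1 in the later lists, against 99.1 in NEC. At chr9:57682936-57684829, with 542 bp of H3K27me3 in aRG-P, 1079 bp in aRG-N and none in the other lists, H3K4me3 stayed at percentile 98.4 for aRG-P, 89.8 for aRG-N, 87.9 for bRG and 97.9 for N, against 98.9 in NEC. At chr2:38779875-38782012, marked in all 4 later lists, it was 62.6 for aRG-P, 83.5 for aRG-N, 92.5 for bRG and 23.0 for N, against 98.2 in NEC, with the strongest H3K4me3 summit outside H3K27me3 in every later list.

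Most members lay far from any listed NEC H3K27me3 peak, and 89 of the 374 lay beside one. Distances are to listed peaks only, and the NEC list leaves out some numbered calls, as described below. An NEC H3K27me3 peak was found within 5000 bp of 89 members (23.8%, interval 19.6 to 28.4%), against 6.73% of the 9005 constitutive regions without an overlapping NEC peak. At 72 of the 89, a later H3K27me3 peak that met the member also met an NEC H3K27me3 peak. Whether the mark spread from one to the other was not tested. These 72 members differed less in H3K4me3 rank between the later lists and NEC (median difference -2.00 points) than the other 302 (-11.8). Of the 72, 12 were marked in all 4 later lists. An H3K27me3 peak in aRG-N was present at 63.9% of the 72 and at 41.4% of the 302. For the other lists the shares were 27.8% and 27.8% (aRG-P), 30.6% and 38.1% (bRG), and 77.8% and 81.8% (N).

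The members nearest to NEC H3K27me3 were chr9:70054747-70056452, chr16:8670875-8672667 and chr9:95537526-95538819, at 2, 13 and 15 bp. At the first and last of these the later mark was in N, over 604 and 1294 bp, and at the other it was in aRG-N over 55 bp. On the far side of the rule, the constitutive regions with later H3K27me3 that were closest to being members overlapped an NEC H3K27me3 peak by 3, 5 and 10 bp. The members with the least later H3K27me3 had 14, 48 and 48 bp in the list that covered them most.

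The members marked in all 4 later lists that lay farthest from NEC H3K27me3 were at chr6:12698305-12699727 (2150 kb), chr4:71862206-71864213 (1571 kb), chr10:125402757-125404977 (1072 kb) and chr17:63228119-63233679 (978 kb). The region on chromosome 6 went against the general order, with H3K4me3 at percentile 69.6 for aRG-P, 35.2 for aRG-N, 44.3 for bRG and 68.2 for N, against 20.3 in NEC. At the region on chromosome 4 H3K27me3 and H3K4me3 of the same later cell type shared 0 bp in each list. At the region on chromosome 17 (5561 bp) H3K27me3 covered 1532 to 1801 bp in the later lists, and H3K4me3 stood at 18.5 to 55.8, against 96.4 in NEC. At all 4 of these regions a number was missing between the flanking NEC H3K27me3 peaks, so an NEC call that the list leaves out may lie nearer.

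Names in the H3K27me3 lists end in a peak number. Those of NEC run in order along the list, with 30.9% of them missing. Between the listed NEC peaks on either side of a member the numbers were consecutive at 254 members (67.9%), so that no numbered NEC call was left out between them. At 112 members 1 or more numbers were missing between the flanking peaks, and 8 members near a chromosome end could not be read. For the 64 members marked in all 4 later lists the consecutive count was 33 (51.6%), and for regions with no H3K27me3 it was 6251 (72.4%). A missing number can lie anywhere between the flanking peaks. Of the 32 regions named by rule, 20 had consecutive numbers.

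The members were spread over all 19 autosomes. They made up between 1.98% of constitutive regions on chromosome 1 (13 of 656) and 4.81% on chromosome 18 (15 of 312), and chromosome 2 held the most (45 of 944). Only 4 pairs of neighbouring members lay within 20000 bp of each other. They included chr10:98723353-98725534, marked in aRG-N only, which lay 351 bp from the region with the most negative difference in H3K4me3 rank, and chr16:30062886-30064923, marked in bRG and N, 506 bp from a neighbour with the same pattern.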

How the data were processed

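Chromatin was immunoprecipitated with a low-cell-number kit, per the labels' protocols, and build mm9, MACS2, bedtools and the aligner Bowtie 1.0.0 appear in the submitters' processing notes. Per the peak names, each of the 10 deposited lists was called on combined samples, most after duplicate removal. The aRG-P H3K27me3 file excluded a set, and N H3K27me3 reads were extended, so list differences can come from such steps. The lists are of peaks at transcripts, and those of apical H3K4me3 name a 2000 bp window, per the file headers. The authors' peak caller gave H3K4me3 peaks a fold enrichment and −log10 q values. The deposited H3K27me3 columns are called scores, since their meaning could not be settled. Read depth is unknown, and the 2 Input samples were not analysed here.

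Regions were computed in Python 3.11.15 (pandas 2.3.3, numpy 2.4.6; exact intervals by scipy 1.17.1; figures by matplotlib 3.10.9). The fold enrichment of a region is that of its highest peak in a list. Named regions were the 8 in all 4 E14.5 lists with the most bases covered in the list covering them least. Others had the most H3K27me3 in 1 list only (up to 3 per list), the highest NEC fold enrichment (4) or the greatest width (4). The rest lay farthest from NEC H3K27me3 among those in all 4 E14.5 lists (4) or nearest to it (3). Ties went to the lower chromosome and start. Members, lists and rules were chosen with earlier results of these data known. On simulated lists, all 200 planted regions among 11345 were recovered with 0 errors. This checks the overlap code only, since the simulated peaks were placed inside the regions. Alternatives were other overlaps, distances, thresholds, list lengths and left-out lists. The overlap with H3K4me3 of the same cell type, consecutive NEC numbers, chromosomes X and Y, and all alternatives for percentiles were added after seeing the data.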

Additional observations from a re-analysis of the deposited data

How the results depend on the processing

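No paired analysis was possible because each list pools its samples and no result comes from a test, and no replicate could be left out for the same reason. The 374 members became between 172 and 501 under 14 alternatives. Requiring 2 later lists gave 172 members, 162 of them in N, a median H3K4me3 percentile difference of -15.0 and NEC highest at 57.0%. Without the N list there were 233 members, 120 in a single list. With all H3K27me3 lists, NEC included, cut to equal length, 99 members were marked in all 4 later lists, 165 in aRG-P and 262 in bRG. There 526 regions had H3K27me3 in NEC only, against 802. At that length 248 of the 374 remained, and 26 of the 32 regions named by rule. With consecutive NEC numbers 33 were marked in all 4, 81 in bRG, 61 in aRG-P and 201 in N, and 20 of the 32 regions named by rule were still members. An overlap of at least 50% gave 501 members, since it also drops small NEC overlaps, with NEC highest at 41.3%. By construction, the widest single peak was shorter than the joined region of 1781 bp, at 755 bp for aRG-P, 1077 bp for aRG-N, 879 bp for bRG and 804 bp for N, against 1619 bp in NEC. The percentile difference stayed negative under every alternative run. It was smaller in size than the -10.8 of the main rule with lists cut to equal length (-7.97), 50% overlap (-8.05) and consecutive NEC numbers (-8.32), among others. Adding chromosomes X and Y gave 376 members. Depth could not be assessed.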
